A study of Rattus norvegicus with 5 samples.

Results

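The genes described here are 51 carriers of the Slc1, Slc3, Slc6, Slc7, Slc36, Slc38 and Slc43 families, most of which move amino acids across cell membranes. The rule went by symbol and took every probe set whose platform annotation gave a single symbol made of one of these 7 family names, the letter a and a number, apart from Slc7a11 and Slc7a13. Each of the 51 genes had 1 such probe set, out of 14506 genes named by a probe set with a single symbol, and each symbol was still current in RefSeq. The table held 29215 probe sets, 15310 of them with a single symbol. Rats of the Sprague-Dawley strain, all with type I diabetes, gave the proximal tubular cells whose RNA was hybridised to Affymetrix whole-transcript arrays. Cells from 3 animals had been kept with C-peptide, the connecting peptide cleaved from proinsulin, for 2 h, and cells from 2 animals had been kept without it for the same time. All 5 arrays came from diabetic animals, and neither the way diabetes was induced nor the rats' age is stated in the labels. The families also hold carriers of neurotransmitters, taurine, creatine and nucleobases, so the name amino acid transporter covers most but not all of the 51.

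The proximal tubule takes back nearly all the amino acids that the glomerulus filters. Carriers in the brush border, the apical membrane facing the urine, bring them into the cell, many of them with sodium, and carriers in the basolateral membrane pass them on to the blood or exchange them. Several carriers of the Slc7 family work only when bound to a heavy subunit of the Slc3 family, which brings them to the membrane. Loss of the cystine carrier Slc7a9 or its partner Slc3a1 causes cystinuria, and loss of the neutral amino acid carrier Slc6a19 causes Hartnup disorder.

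Promoter sequence is shown for 4 members whose results are described below, the brush border carriers Slc6a19, Slc6a18 and Slc3a1 and the kidney carrier Slc7a12. The sequences are the 250 bases before the gene's start in RefSeq (build GRCr8), on the gene's own strand, at chr1:31414494-31414743, plus strand for Slc6a19, chr1:31436403-31436652, plus strand for Slc6a18, chr6:15394750-15394999, minus strand for Slc3a1 and chr2:88868104-88868353, minus strand for Slc7a12. Capitals mark the letters GTTAAT on either strand, the half-site of the HNF1 factors, transcription factors of the proximal tubule.
Slc6a19: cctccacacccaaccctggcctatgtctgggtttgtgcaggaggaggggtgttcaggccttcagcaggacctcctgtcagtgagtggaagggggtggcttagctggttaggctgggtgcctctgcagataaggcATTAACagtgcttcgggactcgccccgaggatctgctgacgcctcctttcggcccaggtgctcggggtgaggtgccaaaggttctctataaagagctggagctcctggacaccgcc
Slc6a18: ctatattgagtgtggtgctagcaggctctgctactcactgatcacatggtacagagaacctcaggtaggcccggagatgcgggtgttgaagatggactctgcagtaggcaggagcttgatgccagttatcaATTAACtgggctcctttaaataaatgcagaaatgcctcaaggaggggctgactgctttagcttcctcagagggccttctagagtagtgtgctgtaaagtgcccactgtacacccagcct
Slc3a1: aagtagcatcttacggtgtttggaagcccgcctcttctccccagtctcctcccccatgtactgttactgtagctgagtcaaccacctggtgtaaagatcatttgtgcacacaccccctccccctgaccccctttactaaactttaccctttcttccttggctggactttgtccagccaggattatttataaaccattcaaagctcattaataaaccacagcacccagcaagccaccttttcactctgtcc
Slc7a12: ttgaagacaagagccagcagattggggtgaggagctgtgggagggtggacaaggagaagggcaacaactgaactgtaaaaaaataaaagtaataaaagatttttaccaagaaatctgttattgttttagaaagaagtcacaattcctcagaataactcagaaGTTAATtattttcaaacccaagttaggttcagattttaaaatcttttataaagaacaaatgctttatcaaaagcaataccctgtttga
These letters stood 116, 119 and 88 bases before the start in Slc6a19, Slc6a18 and Slc7a12, counted to their first base, and were not in the window of Slc3a1. Of the 51 members, 40 had a promoter in the RefSeq table, with 44 promoters among them. Of the 40, 4 held GTTAAT in at least 1 promoter (the other was Slc7a15), while 6.45% of all 33469 promoters did. The members were thus counted by gene and the share by promoter. Slc6a19 and Slc6a18 are neighbouring genes on chromosome 1.

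A further motif, TGATGNAA on either strand, is the core of the element through which the transcription factor ATF4 raises amino acid carriers when amino acids are short. It is shown because general uptake carriers are its known targets. It stood in the windows of 3 of the 40 members, Slc7a1 (chr12:11664443-11664480, plus strand), Slc38a1 (chr7:129681521-129681558, minus strand) and Slc1a4 (chr14:98761775-98761812, minus strand), and in 3.4% of all promoters. Members were again counted by gene and the share by promoter. The match is in capitals with its surrounding bases.
Slc7a1: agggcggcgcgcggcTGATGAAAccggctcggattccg
Slc38a1: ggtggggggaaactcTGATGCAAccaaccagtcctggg
Slc1a4: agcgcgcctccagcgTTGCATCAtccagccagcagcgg

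The comparison of C-peptide with untreated cells asks how the peptide changes transcription within hours. Array medians as deposited ran from 60.1 to 95.9, so intensities were quantile normalised and tested as log2(intensity + 16) with limma across all probe sets. A log2 difference below is C-peptide minus untreated on that scale, with its standard error (SE), and it understates the change of dim probe sets. In the limma fit 0 of the 51 members passed an adjusted p of 0.05 in either direction, as did 0% of all probe sets, the smallest adjusted p among members being 0.122. At an unadjusted p under 0.05, 5 members were higher with C-peptide and 1 was lower, where 5.06% and 6.3% of all probe sets were. The 5 became 10 without C-peptide animal 2 (5.36% of all probe sets), and the 1 became 0 without untreated animal 1 (3.57%) and 3 without C-peptide animal 3 (5.21%). The groups did not overlap in 15 members, 13 higher with C-peptide and 2 lower, beside 16.1% and 13.8% of all probe sets. On the intensities as deposited the median log2 difference of all probe sets was -0.13, and it was not taken off before calls were made. There 2 members were higher and 1 lower at an unadjusted p under 0.05 (0.661% and 6.38% of all probe sets). The groups did not overlap in 7 higher and 5 lower members (3.97% and 16.7%). Without overlap on both scales were Slc3a1, Slc1a1, Slc38a3, Slc7a12, Slc6a2 and Slc6a15 on the higher side and Slc38a2 and Slc43a3 on the lower. The median log2 difference was 0.12 over the 51 members and 0.02 over all probe sets, with 31 members above 0 and 20 below, beside 53.6% and 46.4% of all probe sets.

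By role, the median log2 difference was 0.48 over the 6 carriers of apical uptake and 0.37 over the 7 of basolateral exit and exchange. It was 0.00 over the 13 carriers of general uptake and -0.09 over the 12 neurotransmitter carriers. The 3 carriers of osmolytes and creatine had a median of 0.28, the 4 of the lysosome 0.15 and the 6 others 0.13. The role groups were drawn with earlier results known, and the differences between them were not tested. Of the 51, 28 had a mean above the median probe set, and 23 did not. The 5 members at an unadjusted p under 0.05 on the higher side were Slc7a12, Slc38a3, Slc3a1, Slc1a1 and Slc6a18, and the single one on the lower side was Slc43a3. Marker lists of the tubule and of other cells also had medians away from 0 on these arrays, none of their genes passing an adjusted p of 0.05. The 15 measured proximal tubule markers had a median of 0.54, the 7 of thick limb and distal tubule 0.33 and the 8 of the collecting duct 0.22. The summed intensities of the last 2 lists overlapped between the groups. They were 10102 to 17762 with C-peptide against 11384 to 12924 for thick limb and distal tubule, and 2465 to 3824 against 2583 to 3188 for the collecting duct. The 11 endothelial markers had a median of -1.14, the 11 immune cell markers -0.49, the 4 podocyte markers -0.41 (from -1.32 to 0.11) and the 8 stromal markers -0.23. The part of these in the carriers' values was not tested.

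**Figure D1:**
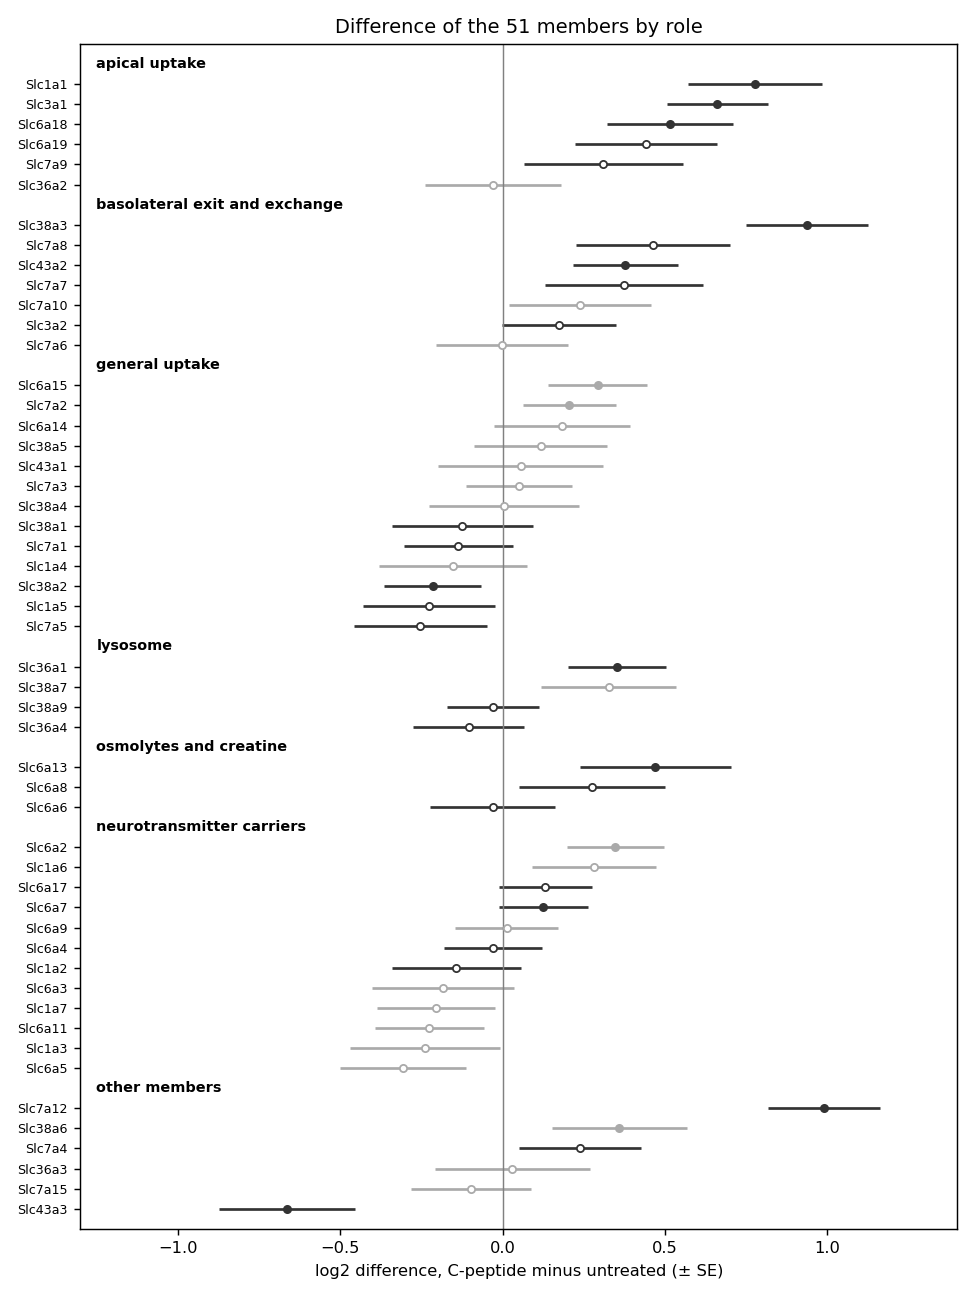
Log2 difference, C-peptide minus untreated, with its SE for each of the 51 members, grouped by role; 3 C-peptide and 2 untreated arrays. Dark points have a mean above the median probe set and grey points do not, and filled points have groups that do not overlap. Slc7a12 (0.99) and Slc38a3 (0.94) lie farthest to the right and Slc43a3 (-0.66) farthest to the left.

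Among the carriers of the brush border, Slc3a1, the heavy subunit of the cystine and cationic amino acid exchanger, had intensities of 3482, 3208 and 4056 in C-peptide animals 1, 2 and 3 and 2222 and 2277 in untreated animals 1 and 2. The groups did not overlap, and the untreated arrays lay close together. The means were 3582 ± 433 (SD, n = 3) and 2249 ± 38.8 (SD, n = 2), a log2 difference of 0.66 ± 0.16 (SE; adjusted p = 0.191 in limma). Slc1a1, the sodium-driven carrier of glutamate and aspartate, stood at 741, 617 and 958 with C-peptide and 402 and 475 without. Again every C-peptide array was above both untreated arrays, at a log2 difference of 0.78 ± 0.21 (SE; adjusted p = 0.232). Slc6a18, a carrier of glycine and other neutral amino acids, stood at 429, 365 and 555 against 318 and 292, also without overlap, and differed by 0.52 ± 0.19 (SE; adjusted p = 0.391). On the intensities as deposited the groups of Slc6a18 overlapped.

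The light subunit and the main neutral carrier were less clearly apart on the normalised intensities. Slc7a9, the transporting subunit that pairs with Slc3a1, had intensities of 1231, 683 and 1012 with C-peptide and 799 and 726 without. C-peptide animal 2 lay below both untreated arrays, and the log2 difference was 0.31 ± 0.24 (SE; adjusted p = 0.688). Slc6a19, the neighbour of Slc6a18 in the genome and the main sodium-driven carrier of neutral amino acids, stood at 1207, 756 and 1129 against 767 and 713. Here C-peptide animal 2 lay within the untreated range, at a log2 difference of 0.44 ± 0.22 (SE; adjusted p = 0.496 in limma). On the intensities as deposited the groups of Slc6a19 did not overlap, at 936, 840 and 1113 against 815 and 772, unlike those of Slc6a18. With 1 array left out the log2 difference ran from 0.12 (without C-peptide animal 1) to 0.55 (without C-peptide animal 2) for Slc7a9, and from 0.31 to 0.66 for Slc6a19, by the same arrays. Slc36a2, a proton-driven carrier of proline and glycine, was dim at 12.9 to 26.3 in all 5 arrays and its groups overlapped (-0.03 ± 0.21, SE). Slc6a20a, the proline carrier of the brush border, lies outside the rule because its symbol ends in a letter. Its groups did not overlap at 248, 228 and 267 against 207 and 178, at 0.34 ± 0.15 (SE; adjusted p = 0.454 in limma). On the intensities as deposited the groups of Slc6a20a overlapped.

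**Figure D2:**
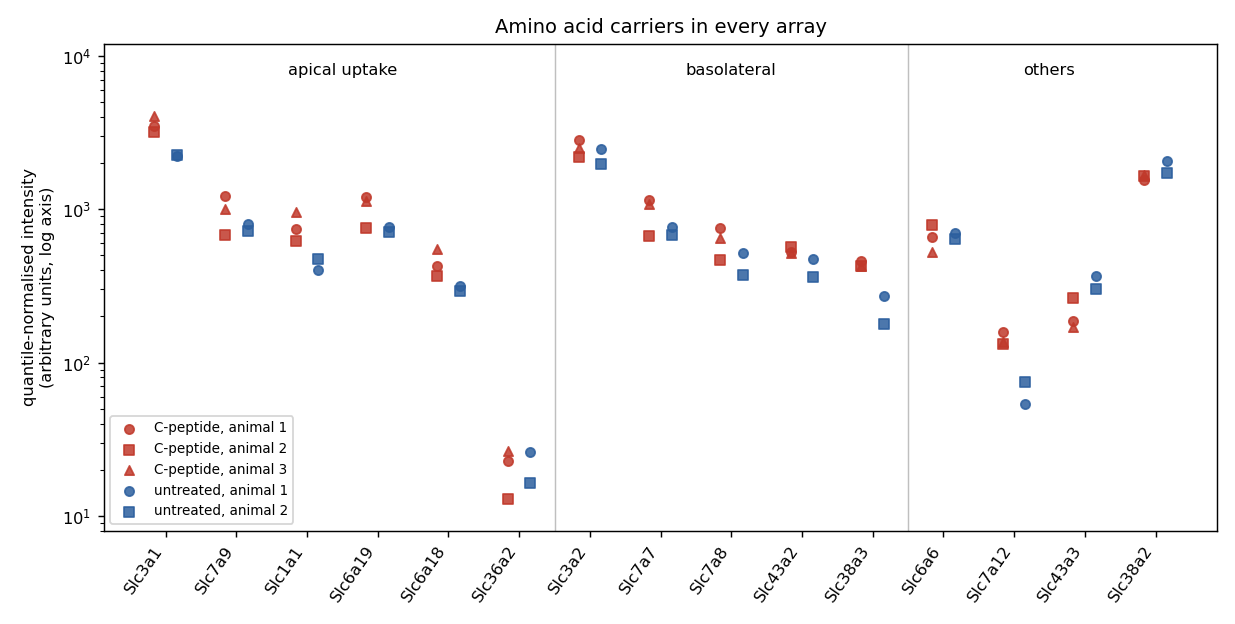
Quantile-normalised intensity (arbitrary units, log axis) of 15 members in each of the 5 arrays; red symbols are C-peptide arrays, blue symbols untreated arrays, and the symbol shape gives the animal number within its group. Heights of different genes come from different probe sets and are not compared. In Slc3a1, Slc1a1, Slc6a18, Slc43a2, Slc38a3 and Slc7a12 every red symbol lies above both blue ones, and in Slc43a3 and Slc38a2 every red symbol lies below.

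Of the basolateral carriers, Slc38a3 differed most. It takes glutamine into the tubule cell, where glutamine feeds ammonia production and glucose synthesis, and in rodents it is known to increase in acidosis. Its intensities were 459.7, 428 and 425 in the C-peptide arrays and 271 and 179.6 in the untreated arrays, with means of 437 ± 19.3 (SD, n = 3) and 225 ± 64.4 (SD, n = 2). The C-peptide arrays lay within a narrow range above both untreated arrays, which differed from each other. The log2 difference was 0.94 ± 0.19 (SE; adjusted p = 0.146), and leaving out 1 array at a time moved it between 0.66 and 1.22. When only the 14607 probe sets with a mean above the median intensity of 81.5 were fitted, which its arrays all exceeded, its adjusted p was 0.0300 in limma, with 0.534% of those probe sets called higher and 2.18% lower.

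The exchangers that release amino acids to the blood stood higher in part of the arrays. Slc7a7, which exchanges cationic for neutral amino acids and whose loss causes lysinuric protein intolerance, had 1155, 669 and 1077 with C-peptide and 762 and 685 without. Slc7a8, an exchanger of neutral amino acids, had 756, 469 and 649.6 against 518 and 374. In both genes C-peptide animals 1 and 3 were above the untreated arrays and C-peptide animal 2 was not, with log2 differences of 0.37 ± 0.24 and 0.46 ± 0.24 (SE; adjusted p = 0.615 and 0.513). Slc43a2, which lets neutral amino acids out, had 529, 571 and 522 against 471 and 360.1, without overlap and at 0.38 ± 0.16 (SE; adjusted p = 0.443 in limma). Its groups overlapped on the intensities as deposited. Slc3a2, the heavy subunit shared by Slc7a7, Slc7a8 and other exchangers, had 2850.2, 2203 and 2513 against 2479 and 1990.1, and its groups overlapped (0.17 ± 0.18, SE). The heavy subunits thus had log2 differences of 0.66 for Slc3a1 and 0.17 for Slc3a2, and the difference between them was not tested. Slc7a6 and Slc7a10, also counted here, were below the median intensity, at -0.0015 and 0.24.

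Slc7a12, a kidney carrier of the Slc7 family known from the mouse to carry small neutral amino acids, had the highest log2 difference of the 51 members on the main scale, though with a pseudocount of 64 it stood at 0.69, below Slc38a3 (0.81) and Slc1a1 (0.72), and without untreated animal 1 at 0.79, below Slc38a3 (1.22). It had intensities of 158, 132 and 136 in the C-peptide arrays and 53.4 and 74.7 in the untreated arrays. The groups were well apart, with means of 142 ± 14.1 (SD, n = 3) and 64.02 ± 15.1 (SD, n = 2). The log2 difference was 0.99 ± 0.17 (SE; adjusted p = 0.122), and between 0.79 and 1.17 with 1 array left out. Both untreated arrays lay below the median intensity, so that it entered the fit of brighter probe sets through its C-peptide arrays, and its adjusted p of 0.0218 there is no support. With a trended and robust variance prior over all probe sets its adjusted p in limma was 0.0435, where 0.123% of all probe sets were called higher and 0.585% lower. Slc7a13, which the rule leaves out, pairs with Slc3a1 in the late proximal tubule of the mouse. It had 2051, 2064 and 2014 against 799.6 and 949.97, a log2 difference of 1.21.

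Slc43a3, a carrier of purine nucleobases rather than amino acids, differed most in the other direction. It had intensities of 187, 265 and 171 with C-peptide and 368 and 301 without. All C-peptide arrays lay below both untreated arrays, C-peptide animal 2 being nearest to them, and the log2 difference was -0.66 ± 0.21 (SE; adjusted p = 0.314). The 11 endothelial markers summed to 8698 to 13545 on the C-peptide arrays and 20758 to 24512 on the untreated arrays, with C-peptide animal 2 again the highest of its group. Of the 11, all were below 0 and 10 had no overlap between the groups, and none was at an intensity of 0 on any array. The part of endothelial RNA in the Slc43a3 value was not tested. In RNA from a mixed preparation, fewer cells of a type and less RNA per cell cannot be told apart.

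The 13 carriers grouped here as general uptake, not all of them used by growing cells at large, showed no direction common to all. Of these 13 members 7 lay above 0 and 6 below, from -0.25 to 0.29. None was at an unadjusted p under 0.05 in limma, where 5.06% of all probe sets were higher and 6.3% lower. The 5 with a mean above the median probe set, Slc38a2, Slc1a5, Slc38a1, Slc7a1 and Slc7a5, all lay below 0. None of the 7 above 0 had a mean above the median probe set. Among these dim members, Slc7a2 and Slc6a15 were without overlap on the higher side, at 0.21 and 0.29, beside 16.1% of all probe sets. The groups of Slc7a2 overlapped on the intensities as deposited. Slc38a2, a sodium-driven carrier of small neutral amino acids that cells induce when amino acids are short, had 1554, 1640.1 and 1672 with C-peptide and 2073 and 1715 without. The C-peptide arrays lay just below both untreated arrays, at a log2 difference of -0.22 ± 0.15 (SE; adjusted p = 0.640). Slc7a5 and Slc7a1, the carriers of large neutral and of cationic amino acids, were at -0.25 ± 0.20 and -0.14 ± 0.17, and Slc1a5, a glutamine carrier, at -0.23 ± 0.20 (SE), all with overlapping groups. Of the carriers whose promoters held the ATF4 core, Slc7a1, Slc38a1 and Slc1a4, none was separated between the groups, with log2 differences of -0.14, -0.12 and -0.15.

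Other targets of the amino acid response lay on both sides of 0. Of 15 listed genes 14 were measured, with a median of -0.04, and 0 passed an adjusted p of 0.05 in limma. At an unadjusted p under 0.05, 1 was higher and 1 lower, beside 5.06% and 6.3% of all probe sets. Atf4, the factor itself, had 1448, 1174 and 1261 with C-peptide and 1595 and 1528 without, lower without overlap at a log2 difference of -0.27 ± 0.15 (SE). Psat1, of serine synthesis, had 1125, 907 and 1225 against 749 and 760.2, at 0.50 ± 0.17 (SE; adjusted p = 0.342). Phgdh and Shmt2, of serine and glycine metabolism, were at 0.42 and 0.38, each without overlap. As deposited, the groups of Shmt2 overlapped and those of Phgdh did not. Asns, asparagine synthetase and a standard target of ATF4, was at 0.02, and Cebpb at -0.53.

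Members of the lysosomal membrane, where amino acids leave the lysosome and are sensed for mTORC1, numbered 4. Slc36a1, a proton-driven exporter, had 171, 153 and 144 with C-peptide and 128 and 109.5 without, a separation of 0.35 ± 0.15 (SE; adjusted p = 0.441 in limma). Its groups overlapped on the deposited intensities. Slc38a9, the arginine sensor of the mTORC1 pathway, had 109.5, 128 and 126 against 122 and 126, at -0.03 ± 0.14 (SE). Slc36a4 and Slc38a7 were at -0.10 and 0.33 with overlapping groups. Of 19 listed genes of amino acid sensing around mTORC1, 16 were measured, with a median of 0.11 and a range from -0.28 to 0.36. None of the 16 was at an unadjusted p under 0.05 in limma (5.06% of all probe sets were higher and 6.3% lower). The groups did not overlap in 4 of them, Rragc, Mlst8, Lamtor4 and Flcn, all higher, beside 16.1% of all probe sets on that side. On the deposited intensities the groups of all 4 overlapped. The median of this list was 0.032 there, with the median of all probe sets taken off.

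Carriers of organic osmolytes and creatine were 3. Slc6a6, the taurine carrier, had 659.6, 796 and 529 with C-peptide and 696 and 639 without, so that the untreated arrays lay inside the C-peptide range (-0.03 ± 0.19, SE). Slc6a13, a carrier of GABA and taurine, had 195, 130.2 and 235 against 126 and 128, with C-peptide animal 2 barely above the untreated arrays (0.47 ± 0.23, SE). Slc6a8, the creatine carrier, was at 0.28 ± 0.22 (SE) with overlap. The 12 neurotransmitter carriers, which serve neurons and glia, lay between -0.31 and 0.35, and 4 of them had a mean above the median probe set. Of the 12, Slc6a2 and Slc6a7 had groups that did not overlap, both higher, beside 16.1% of all probe sets on that side. Those of Slc6a7 overlapped on the deposited intensities. The 4 other members not yet given, Slc7a4, Slc7a15, Slc36a3 and Slc38a6, were at 0.24, -0.10, 0.03 and 0.36. Of these Slc38a6 had no overlap, on the normalised intensities only.

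Of 16 listed partners of the carriers 14 were measured, 13 lay above 0, and the median was 0.30, with 0 past an adjusted p of 0.05 in limma. At an unadjusted p under 0.05, 2 were higher and 1 lower, beside 5.06% and 6.3% of all probe sets. The median was 0.18 with a pseudocount of 64 and -0.22 relative to the proximal tubule markers, a scale described below. Cltrn, collectrin, which Slc6a19 and its relatives need to reach the brush border, had 2513, 1969 and 2759.8 with C-peptide and 1659.9 and 1928 without, at 0.41 ± 0.18 (SE; adjusted p = 0.456). Pdzk1, a scaffold of brush border carriers, had 2696, 2032 and 2807 against 1876 and 1704, at 0.47 ± 0.18 (SE). Slc15a2, the high-affinity peptide carrier of the late proximal tubule, had 427, 369.8 and 433 against 215 and 234, without overlap, at 0.82 ± 0.15 (SE; adjusted p = 0.127). Slc15a3, a peptide carrier of immune cells' endosomes, had 169, 181 and 127 against 326 and 304, at -0.93 ± 0.18 (SE; adjusted p = 0.138). The 11 immune cell markers summed to 5864 to 8151 on the C-peptide arrays and 8595 to 9678 on the untreated arrays, 11 of 11 lying below 0 and none at an intensity of 0 on any array, and their part in the Slc15a3 value was not tested.

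The brush border and basolateral carriers were then set beside markers of the proximal tubule as a whole. The 15 measured markers, among them Lrp2, Cubn, Aqp1 and Slc34a1, all had means above the median probe set, and so did all 11 endothelial and 10 of the 11 immune cell markers. The tubule markers summed to 33629.9 to 44280.3 on the C-peptide arrays and 25966 to 31036 on the untreated arrays, and all 15 lay above 0, 9 without overlap, none being at an intensity of 0 on any array. The 5 apical carriers above the median intensity summed to 7089.7, 5629 and 7709 with C-peptide and 4507 and 4483 without. The 5 such basolateral carriers summed to 5750.2, 4339.8 and 5187 against 4501 and 3589, with C-peptide animal 2 below untreated animal 1. C-peptide animal 2 was lowest of its group in the apical carriers, the basolateral carriers and the tubule markers, and highest in the endothelial and immune cell markers. The untreated arrays had no such mirrored order. Untreated animal 1 was above untreated animal 2 in the tubule (31036 against 25966), endothelial (24512 against 20758) and immune cell markers (9678 against 8595) alike.

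**Figure D3:**
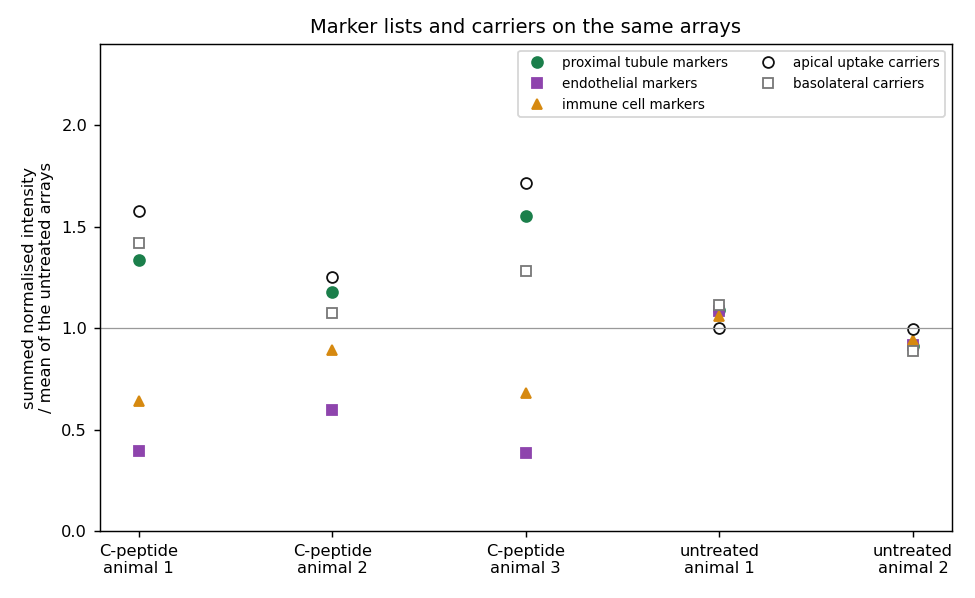
Summed normalised intensity of 3 marker lists (filled) and of the 5 apical and 5 basolateral carriers above the median intensity (open), on each array, divided by the mean of the 2 untreated arrays. Apical carriers and proximal tubule markers stand above the untreated arrays on all 3 C-peptide arrays, and endothelial and immune cell markers below.

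When each array's log2 values were set relative to the mean log2 value of the 15 tubule markers on that array, a scale chosen after the data were seen, none of the 51 members was higher without overlap (0.298% of all probe sets) and 25 were lower (65.4%), 6 of them past an adjusted p of 0.05 in limma, as were 17.4% of all probe sets. The fit on that scale gave all 51 members the same SE, so a member's own spread played no part in these calls. On that scale the median of all probe sets is -0.50, so a position near 0 means a difference like that of the markers. Slc3a1 stood 0.77, 0.84 and 0.77 above the marker mean with C-peptide and 0.53 and 0.78 without, which overlap. Slc38a3 stood at -2.11, -2.02 and -2.44 against -2.44 and -2.77, with C-peptide animal 3 and untreated animal 1 at the same height to 2 decimals. Slc7a12 stood at -3.56, -3.60 and -3.98 against -4.48 and -3.88. The differences on this scale were 0.47 for Slc7a12, 0.41 for Slc38a3, 0.25 for Slc1a1 and 0.14 for Slc3a1 (SE 0.28 each). Slc6a18, Slc7a8 and Slc6a19 were at -0.0066, -0.059 and -0.081, and Slc7a7, Slc43a2 and Slc7a9 at -0.15, -0.14 and -0.21. This scale takes the markers' own difference off each gene, whatever its cause, and is no test of the cell make-up of the preparations.

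**Figure D4:**
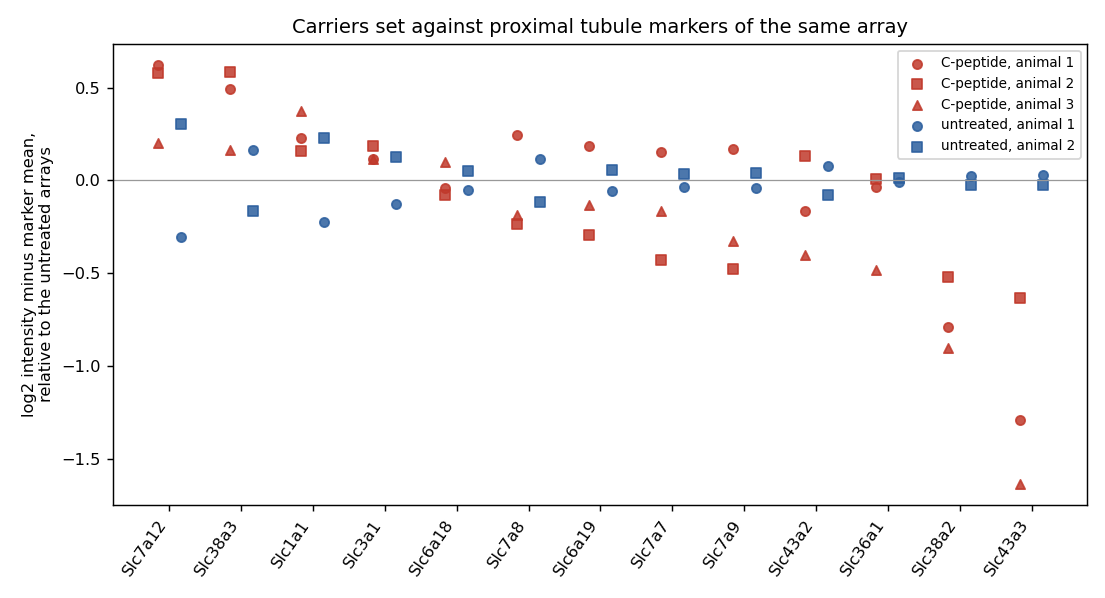
Log2 intensity of 13 members minus the mean log2 value of 15 proximal tubule markers on the same array, drawn relative to the mean of the untreated arrays. Red symbols are the 3 C-peptide arrays and blue symbols the 2 untreated arrays. Red and blue symbols overlap in 11 of the 13, all but Slc38a2 and Slc43a3, which lie lower with C-peptide.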

How the data were processed

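Expression was measured on 5 Affymetrix whole-transcript arrays, 3 of C-peptide-treated and 2 of untreated cells. The authors deposited linear intensities, 1 per probe set and array. The submitters' processing notes name PLIER and Affymetrix Expression Console 1.1, and background correction, scaling and filters are not given. Of the values, 550 were exactly 0, none of them in a member. Names came from the platform annotation, which gave 1 symbol for 15310 probe sets, several for 323 and none for 13582. Intensities were quantile normalised, since array medians differed, and taken to log2 with a pseudocount of 16. A linear model with a group term alone was fitted to all 29215 probe sets in limma 3.58.1 (R 4.3.3; moderated two-sided test), and p-values were adjusted by Benjamini-Hochberg over all of them. The scripts were tested on simulated data. Each array is labelled as a separate animal, and the number of arrays limits the precision.

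The members, role groups, companion lists and marker lists were chosen with earlier results of these data known. Members named with each array's value are those past adjusted p 0.05, up to 6 per direction by p among members above the median probe set whose groups do not overlap, 13 carriers of reabsorption and taurine fixed by name (1 of which, Slc6a20, is annotated under a symbol outside the rule), and the 5 members with the highest means. Other members shown in full, and the letters GTTAAT, were chosen after values were seen. Promoters are RefSeq's. Alternatives were other scalings, pseudocounts, a filter on dim probe sets, variance priors, array weights, averaging probe sets per gene, a block and leaving out each array. Averaging could not change any result, since each member had 1 probe set.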

Additional observations from a re-analysis of the deposited data

How the results depend on the processing

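The directions of Slc7a12, Slc38a3, Slc3a1, Slc1a1, Slc43a3 and Slc38a2 were the same under every alternative tried. No member passed adjusted p 0.05 on the deposited intensities, centred arrays, either pseudocount, array weights, the block or with any array left out. Fitting the 14607 probe sets above the median intensity, which tests fewer probe sets, gave 2 higher members (Slc38a3, and Slc7a12, which entered through its C-peptide arrays) and a median of 0.21 over 28 members, and the trended and robust prior gave 1. On the deposited intensities, 2 members were higher at unadjusted p under 0.05 (Slc38a3 and Slc7a12), and 7 higher and 5 lower without overlap. There the median of all probe sets was -0.13, and it was taken off the differences but not before these calls were made. A pseudocount of 64 gave a median of 0.062 over the members. With the animal number as a replicate block, 4 members were higher and 2 lower at unadjusted p under 0.05 (3.7% and 5.44% of all probe sets). The numbers are not stated to pair animals, and deviations of same-numbered arrays correlated at -0.02 and 0.01. With 2 untreated arrays, their deviations mirror each other, so these values cannot decide whether animals were paired.

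With 1 C-peptide array left out, 6 to 10 members were higher and 1 to 3 lower at unadjusted p under 0.05 in limma. The shares of all probe sets were 3.88% to 5.36% and 5.21% to 6.56%. With any 1 array left out, 16 to 20 members were higher and 5 to 9 lower without overlap (22.7% to 30.3% and 19.3% to 25.3% of all probe sets). The median of the members then ran from 0.020 (without untreated animal 2) to 0.13. Where an untreated array was left out, the other was assumed to vary like the C-peptide arrays. The 10 arose without C-peptide animal 2, with Slc6a19, Slc7a9, Slc7a7, Slc7a8 and Slc6a13 added, and the 3 without C-peptide animal 3.

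Members near 0 changed sign. Slc36a2 was at 0.0029 on the deposited intensities, 0.038 on centred arrays, 0.13 with C-peptide animal 2 left out and 0.15 with untreated animal 1 left out. Slc6a6 was at 0.12 with the block, 0.12 with C-peptide animal 3 left out and 0.03 with untreated animal 1 left out. Relative to the tubule markers, 0 members were higher and 15 lower at unadjusted p under 0.05 (0.137% and 40.9% of all probe sets), 0 higher and 25 lower without overlap, 6 lower past adjusted p 0.05 (17.4% of all probe sets were), and the median was -0.41. Every member had the same SE in that fit, so its own spread played no part in the p-values. Of the 31 members above 0, 4 stayed there (Slc3a1, Slc1a1, Slc38a3 and Slc7a12) and 27 turned, among them Slc3a2 (-0.35), Slc6a19 (-0.081), Slc7a9 (-0.21), Slc7a7 (-0.15), Slc7a8 (-0.059), Slc43a2 (-0.14), Slc6a18 (-0.0066) and Slc36a1 (-0.17), as that scale takes the markers' own difference off every gene. The arrays give no detection call, so what signal over background limits was not assessed.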
